A study of Mus musculus with 5 samples.

Results

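Enzymes that remove superoxide and peroxides were examined in astrocyte libraries from the mouse amygdala. The 8 genes were chosen by name from the 35976 genes of the count table: Gpx3 and Sod3, whose products act outside the cell, and Sod1, Sod2, Gpx1, Gpx4, Cat and Prdx6, whose products act inside it. The set was built because Gpx3 and Sod3 had moved in opposite directions between the treatment groups of these same libraries. Their differences between the groups are therefore given as descriptions of these libraries, with no p-value for a member, and the number of members that a test called is given only beside the share over all genes.

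The groups were 3 libraries of CCR2-DTR mice given DTx (diphtheria toxin) and 2 libraries of CCR2-DTR mice given saline. All mice carried the genotype Ccr2::CreERT2/+;DTR/+, in which the Ccr2 locus drives a tamoxifen-inducible Cre recombinase and Cre switches on the toxin receptor. All received tamoxifen, 18 days of tube restraint, fear conditioning and extinction. The purpose was to ask how depletion of monocytes during chronic stress bears on amygdala astrocytes, which were collected on beads against ACSA-2. The libraries labelled DTx are called 5A, 6A and 7A and the saline libraries 1 and 2. The design text names 3 saline animals, and 1 saline library was not analysed here, so every saline value below rests on 2 libraries. The table holds 1 further column marked Ctrl, which matches none of the samples analysed and entered no computation. Its raw counts of Gpx3 and Sod3 were seen to lie nearer to those of the DTx columns than to those of the other Ctrl columns, so the separation of the groups by these genes may not hold with it. Age and sex are not given in the labels.

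Superoxide dismutases turn superoxide into hydrogen peroxide, and catalase, glutathione peroxidases and peroxiredoxins then remove hydrogen peroxide or lipid peroxides. The dismutases differ in place and metal: Sod1 is the copper-zinc enzyme of the cytosol, Sod2 the manganese enzyme of mitochondria, and Sod3 the secreted copper-zinc enzyme. In the brain, astrocytes are a main store of glutathione and supply its precursors to neurons. Gpx1, Gpx3 and Gpx4 are selenoproteins, in which a UGA codon in the reading frame is read as selenocysteine, the catalytic residue.

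The selenocysteine codon of these 3 members is shown because it sets them apart from the other 5 members and ties them to the selenium genes described further on. The capitals mark the codon as DNA, with 18 bases of coding sequence on either side, read 5′ to 3′ from GENCODE M21 transcripts on GRCm38, all on the plus strand.
Gpx3, chr11:54907238-54907276: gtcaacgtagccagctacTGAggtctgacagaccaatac
Gpx1, chr9:108339433-108339471: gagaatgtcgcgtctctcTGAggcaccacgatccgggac
Gpx4, chr10:80054719-80054757: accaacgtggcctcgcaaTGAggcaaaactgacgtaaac
The codon was number 73 of 226 in Gpx3, 47 of 201 in Gpx1 and 73 of 197 in the Gpx4 transcript. Gpx3 is made with a signal peptide for secretion, which the cytosolic Gpx1 lacks.

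Total counts were 15961220 to 18708138 in the DTx libraries and 20577672 and 23720299 in the saline libraries. Astrocyte markers were abundant, with a summed level of 25879 to 29512 counts-per-million (CPM) in the DTx libraries and 25670 and 26599 CPM in the saline libraries, but oligodendrocyte markers summed to still more, at 42977 to 90697 CPM in the DTx libraries and 60227 and 92808 CPM in the saline libraries. The libraries thus held much RNA of other cells. In such bulk samples, a different number of cells of a type and a different amount of RNA per cell cannot be told apart. Sex chromosome genes followed the labels: Xist had 3, 0 and 0 counts in the libraries 5A, 6A and 7A of the DTx group and 3739 and 2876 counts in saline libraries 1 and 2, and the Y-linked Ddx3y had 2309, 1865 and 2365 counts in the DTx libraries against 4 and 1 in the saline libraries. A difference between the groups therefore cannot be told apart from a difference between animals with and without a Y chromosome. Ccr2, the gene whose cells the toxin is meant to remove, had 54, 4 and 4 counts in the DTx libraries and 0 and 0 in the saline libraries, which goes against the label, so directions below are those of the libraries as labelled.

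Gpx3 encodes the secreted glutathione peroxidase found in plasma and extracellular fluid (GRCm38 chromosome 11, 54902453 to 54910377). Its level was 32.98, 25.06 and 18.40 CPM in the libraries 5A, 6A and 7A of the DTx group, against 6.05 and 7.49 CPM in saline libraries 1 and 2. All 3 DTx libraries lay above both saline libraries, with 323 to 624 counts in DTx against 131 and 167 counts in saline libraries. The group means were 25.48 ± 7.30 CPM (SD, n = 3) in DTx and 6.77 ± 1.02 CPM (SD, n = 2) in saline libraries. The log2 fold change, DTx over saline, was 1.91 ± 0.29 (SE), or 3.76-fold, and 98.8% of the 15532 genes tested had a fold change at or below it. The DTx libraries varied by a coefficient of variation of 28.6%, the widest among the 8 members in that group.

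Sod3 encodes the extracellular superoxide dismutase, which binds to heparan sulfate of the matrix (chromosome 5, 52363791 to 52371418). Its level was 37.90, 34.89 and 39.25 CPM in the libraries 5A, 6A and 7A of the DTx group, against 68.38 and 61.60 CPM in saline libraries 1 and 2. The groups did not overlap, and here the DTx libraries were the lower ones. The means were 37.35 ± 2.23 CPM (SD, n = 3) in DTx and 64.99 ± 4.80 CPM (SD, n = 2) in saline libraries, a log2 fold change of -0.80 ± 0.13 (SE), and 3.4% of genes tested had a fold change at or below it. Unlike Gpx3, Sod3 varied little within a group, with coefficients of variation of 5.97% in DTx and 7.38% in saline libraries.

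The ratio of Gpx3 to Sod3 counts within a library does not depend on scaling between libraries. It was 0.870, 0.718 and 0.469 in the libraries 5A, 6A and 7A of the DTx group, against 0.0885 and 0.122 in saline libraries 1 and 2. Sod3 had more counts than Gpx3 in all 5 libraries, by 1.15-fold to 2.13-fold in DTx and 11.3-fold and 8.23-fold in saline libraries. Since the set was built on the opposite directions of Gpx3 and Sod3, the ratio restates that choice and adds no support to it.

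**Figure D1:**
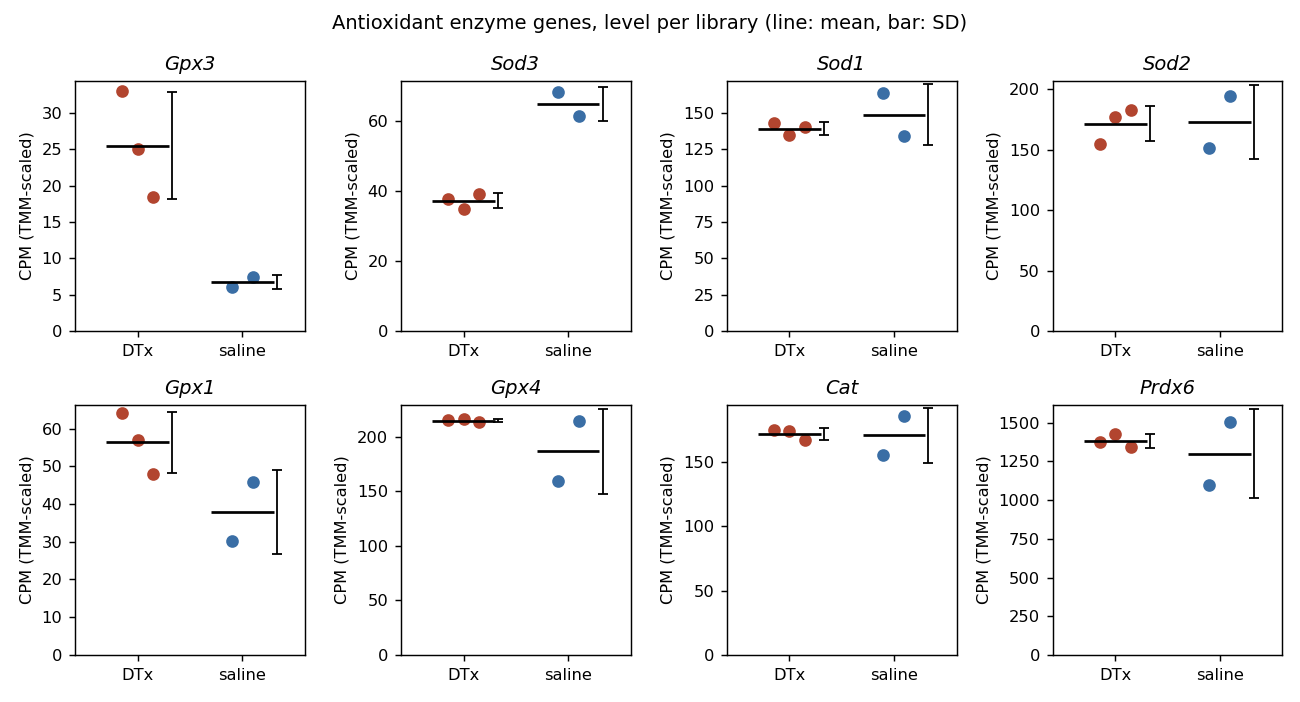
Level of the 8 antioxidant enzyme genes in each library, in TMM-scaled CPM on linear axes from 0, with DTx libraries on the left and saline libraries on the right of each panel. Points are libraries, lines are group means and bars are SD. Gpx3 and Gpx1 have all DTx points above the saline points, Sod3 has all DTx points below them, and the points of the other 5 genes overlap.

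Superoxide dismutases inside the cell did not separate the groups. Sod1, the cytosolic enzyme (chromosome 16, 90220754 to 90226329), was at 143.0, 134.6 and 140.1 CPM in the libraries 5A, 6A and 7A of the DTx group, against 163.7 and 134.04 CPM in saline libraries 1 and 2. Saline library 2 lay below all DTx libraries and saline library 1 above them. The log2 fold change was -0.10 ± 0.15 (SE), and it was 0.05 without saline library 1, -0.23 without saline library 2 and 0.06 with the microglia covariate. Sod2, the mitochondrial enzyme (chromosome 17, 13006846 to 13040063), was at 154.9, 176.8 and 182.7 CPM in DTx libraries, against 151.0 and 194.6 CPM in saline libraries. Its saline values enclosed all DTx values, with a log2 fold change of -0.01 ± 0.17 (SE), which was -0.19 without saline library 1 and 0.18 without saline library 2.

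Of the selenium-dependent peroxidases inside the cell, Gpx1 separated the groups and Gpx4 did not. Gpx1, the main cytosolic glutathione peroxidase (chromosome 9, 108338903 to 108340343), was at 64.17, 56.91 and 48.08 CPM in the libraries 5A, 6A and 7A of the DTx group, against 30.10 and 45.77 CPM in saline libraries 1 and 2. DTx library 7A lay just above saline library 2, so the gap between the groups was narrow. The means were 56.38 ± 8.06 CPM (SD, n = 3) in DTx and 37.94 ± 11.1 CPM (SD, n = 2) in saline libraries, and the log2 fold change was 0.57 ± 0.22 (SE). It was 0.30 without saline library 1, 0.91 without saline library 2 and 0.11 with the mean of microglia markers as a covariate. Gpx4, which reduces lipid peroxides in membranes and restrains ferroptosis (chromosome 10, 80047166 to 80056439), was at 215.2, 216.1 and 213.6 CPM in DTx libraries, against 159.4 and 214.3 CPM in saline libraries. The DTx libraries had a coefficient of variation of 0.606%, and saline library 2 lay among them. The log2 fold change of 0.20 ± 0.17 (SE) was 0.00162 without saline library 1, 0.43 without saline library 2 and -0.03 with the microglia covariate.

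Catalase and peroxiredoxin 6 complete the set. Cat, the peroxisomal enzyme that breaks down hydrogen peroxide (chromosome 2, 103453849 to 103485160), was at 175.1, 173.9 and 166.6 CPM in the libraries 5A, 6A and 7A of the DTx group, against 155.3 and 185.9 CPM in saline libraries 1 and 2. The saline values enclosed the DTx values, and the log2 fold change was 0.01 ± 0.15 (SE). Prdx6, a peroxiredoxin with 1 catalytic cysteine that also acts on phospholipids and is strongly expressed in astrocytes (chromosome 1, 161240112 to 161251219), was at 1375, 1431 and 1342 CPM in DTx libraries, against 1095 and 1503 CPM in saline libraries. Its log2 fold change was 0.09 ± 0.20 (SE). Without saline library 1 the log2 fold changes of Cat and Prdx6 were -0.12 and -0.12, and without saline library 2 they were 0.15 and 0.34, so neither had a direction that held with each saline library left out.

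Of the 8 members, 0 passed an adjusted p of 0.05 with edgeR's quasi-likelihood test over all 15532 genes, where 0.0322% of genes passed. At an unadjusted p under 0.05 there were 3, where 6.28% of all genes lay. DESeq2 called 2 members (0.715% of all genes), the edgeR likelihood ratio test called 2 (0.644%) and limma-voom called 0 (0.0322%). All DTx libraries lay above both saline libraries for 2 members and below them for 1, as they did for 12.1% and 8.99% of all genes. Since the set was chosen in this contrast, these counts say nothing further about it. The median log2 fold change of the 8 was 0.05, against 0.00171 over all genes tested.

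**Figure D2:**
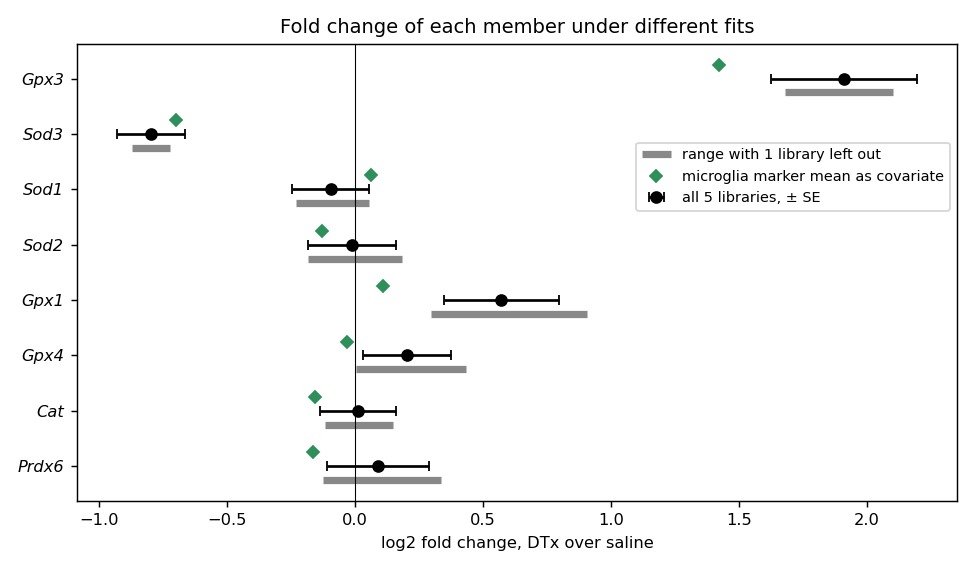
Log2 fold change, DTx over saline, of the 8 members. Black points with bars are the fit to all 5 libraries ± SE, grey bars the range when 1 library is left out, and green diamonds the fit with the mean of microglia markers as a covariate. Gpx3 stays between 1.42 and 2.10 and Sod3 between -0.87 and -0.70, while the grey bars of Sod1, Sod2, Cat and Prdx6 span 0.

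Levels of different genes were compared per kilobase of exon. Prdx6 led with a mean of 280.8 CPM per kb over the 5 libraries, rank 94 of 14358 genes with a length. Gpx4 followed with 118.2, Cat with 65.6, Sod1 with 36.0, Gpx1 with 34.0, Sod2 with 17.2, Sod3 with 12.9 and Gpx3 with 9.93 CPM per kb. By this mean over both groups the extracellular enzymes came last, with Gpx3 above 73.9% of genes. The order at the lower end differed between libraries. Sod3 was at 18.3 CPM per kb and Sod2 at 15.1 in saline library 1, and Gpx3 was at 18.2 and Sod2 at 15.5 in DTx library 5A. Ranges over libraries did not overlap between Prdx6, Gpx4, Cat and Sod1, in that order, nor between Gpx1 and Sod2, where the gap was 20.9 against 19.4 CPM per kb. Sod1 and Gpx1 overlapped, as did Sod2 and Sod3, and Sod3 and Gpx3. In the DTx libraries the mean of Gpx3, 14.1 ± 4.03 CPM per kb (SD, n = 3), lay above that of Sod3, 9.99 ± 0.597. In the saline libraries it was 3.73 ± 0.561 CPM per kb (SD, n = 2) for Gpx3 and 17.4 ± 1.28 for Sod3. The order of the DTx means did not hold in DTx library 7A, with Gpx3 at 10.1 and Sod3 at 10.5 CPM per kb. The length of each gene includes every annotated transcript, for example 10008 bases of exon for Sod2, 4804 for Prdx6, 3970 for Sod1 and 3738 for Sod3. Values per kb, and the order of the genes by them, therefore depend on which transcripts these cells use.

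**Figure D3:**
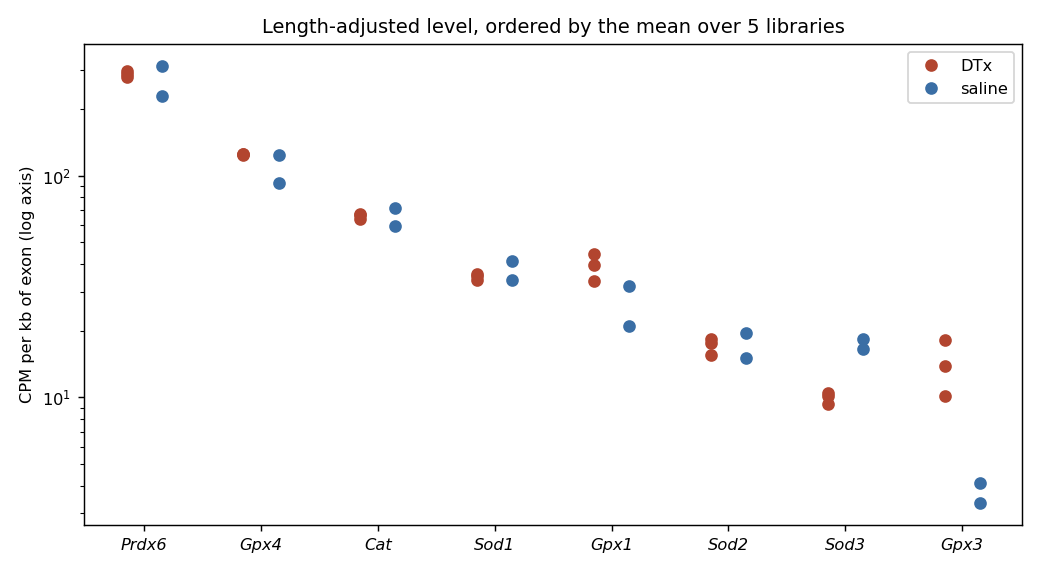
Level per kilobase of exon in each library on a log axis, with genes ordered by their mean over 5 libraries and DTx points left of saline points. Prdx6 stands highest at 228 to 313 CPM per kb, and Gpx3 is last by its mean, between 3.34 and 18.2 CPM per kb, with the points of Sod2, Sod3 and Gpx3 overlapping.

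The 8 members together summed to 2198, 2249 and 2150 CPM in the libraries 5A, 6A and 7A of the DTx group, against 1829 and 2347 CPM in saline libraries 1 and 2. Prdx6 alone made up 62.4% to 63.6% of this sum in DTx and 59.9% and 64.1% in saline libraries. Saline library 1 had the lowest level of Sod2, Gpx1, Gpx4, Cat, Prdx6 and Gpx3 of all 5 libraries and the highest level of Sod1 and Sod3.

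Microglia markers also differed by library. All 12 of 12 had a fold change above 0, 6 of them without overlap (12.1% of all genes with DTx higher), and their summed level was 548, 397 and 314 CPM in the libraries 5A, 6A and 7A of the DTx group, against 119 and 312 CPM in saline libraries 1 and 2. None was at 0. Gpx1 and Gpx3 were likewise highest in library 5A and lowest in saline library 1. DTx library 7A and saline library 2 had similar microglia sums, 314 and 312 CPM. In these libraries Gpx3 was at 18.40 and 7.49 CPM and Gpx1 at 48.08 and 45.77 CPM. With the microglia mean as a covariate the log2 fold change of Gpx3 was 1.42, against 1.91 without it. That of Sod3 was -0.70, against -0.80 without it. This fit of 5 libraries cannot separate the microglia markers, which were higher in DTx libraries on average, from the group. The part of microglial RNA in the levels of Gpx3 and Sod3 was not tested. Neuron markers summed to 512, 696 and 539 CPM in DTx libraries and 450 and 375 CPM in saline libraries, with 10 of 12 above 0 in fold change, 4 of them without overlap (12.1% of all genes with DTx higher), and none at 0. The part of neuronal RNA in the levels of the members was not tested. Endothelial and mural markers summed to 302 to 374 CPM in DTx and 227 and 505 CPM in saline libraries. Choroid plexus and ependyma markers summed to 56.6 to 233 CPM in DTx and 267 and 51.9 CPM in saline libraries. Fibroblast markers summed to 99.0 to 180 CPM in DTx and 212 and 238 CPM in saline libraries, and blood and monocyte markers to 16.5 to 104 CPM in DTx and 19.7 and 19.8 CPM in saline libraries. Oligodendrocyte markers, whose sums are given above and overlapped between the groups, had 0 of 10 fold changes above 0 and a median of -0.46, with none at 0. Their part in the Sod3 values was not tested. Fibroblast sums were lower in all DTx libraries than in both saline libraries, as Sod3 was. In that list 8 of 10 markers had a fold change above 0, groups did not overlap for 1 higher and 1 lower, and none was at 0; its part in the Sod3 values was not tested.

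Among 10292 genes of at least 5 CPM with a proper name, those whose pattern over the 5 libraries lay nearest to Gpx3 were Ly6e, Scg2, Dlk1 and Resp18, at distances of 0.409, 0.416, 0.483 and 0.539 on the log2 scale. Ly6e is an interferon-inducible surface protein, Scg2 a granin of dense-core vesicles, Dlk1 a Notch ligand relative and Resp18 a neuroendocrine secretory protein. Scg2 was at 36.89, 31.59 and 16.63 CPM in the libraries 5A, 6A and 7A of the DTx group, against 7.85 and 7.93 CPM in saline libraries 1 and 2. As with Gpx3, library 7A was the lowest of the DTx libraries. The genes near Gpx3, and those near Sod3 below, were picked for likeness over these same 5 libraries. Their shared pattern restates that choice and adds no support to it. Nearest to Sod3 were Btbd17, Dlg1, Apln and Amotl2, at distances of 0.121, 0.206, 0.231 and 0.239. Btbd17 was at 183.3, 158.3 and 188.9 CPM in DTx libraries, against 348.7 and 296.1 CPM in saline libraries. Apln, the precursor of the peptide apelin, was at 134.3, 119.6 and 150.5 CPM in DTx libraries, against 209.9 and 208.4 CPM in saline libraries.

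**Figure D4:**
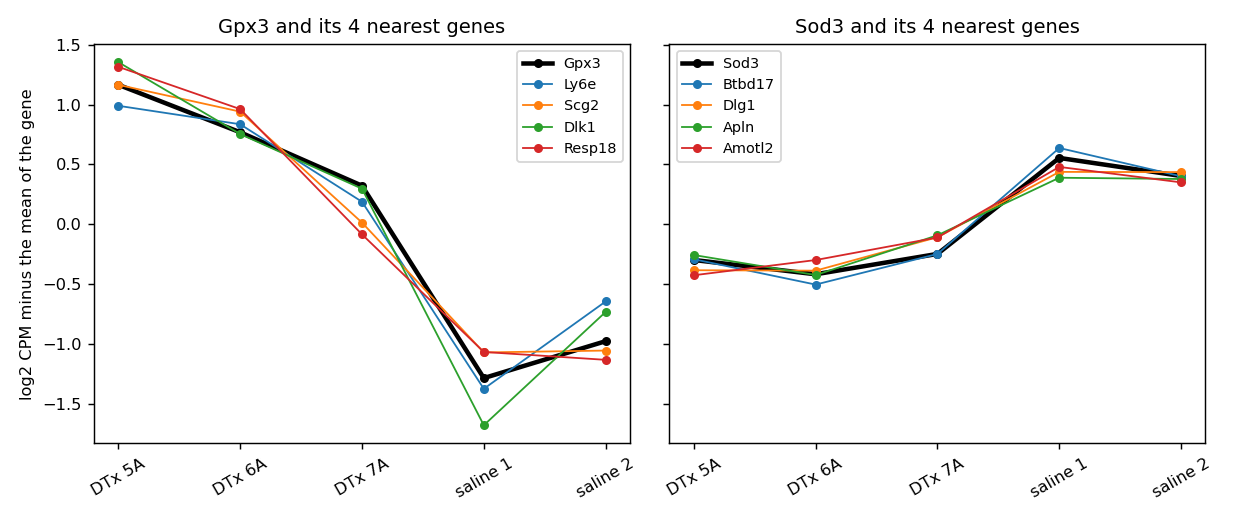
Log2 CPM of Gpx3 and Sod3 (black) and of the 4 genes nearest to each (colours) in the 5 libraries, minus the mean of each gene, with DTx libraries left of saline libraries. Gpx3 and its neighbours spread over the DTx libraries, with 5A highest, whereas Sod3 and its neighbours lie close together within each group. The neighbours were picked for this likeness.

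Genes of related redox pathways were read from the same fit. Of 117 tested in 8 lists, 0 passed the adjusted threshold with edgeR, and 10 (8.55%) had an unadjusted p under 0.05, against 6.28% of all genes. This count of 10 was 4 without DTx library 5A, 5 without 6A, 21 without 7A and 0 with the microglia covariate. Over all genes the count moved in the same directions, from 976 to 556, 468, 1996 and 470 in that order. Those fits tested 15018, 15313, 15370 and 15532 genes. At the adjusted threshold DESeq2, limma-voom and the edgeR likelihood ratio test also called 0 of the 117 genes. The groups did not overlap for 28 of the 117 genes (23.9%), against 21.1% of all genes. A fold change above 0 was found for 76 of the 117 genes (65.0%), against 50.3% of all genes tested. The median log2 fold change was 0.09, against 0.00171 over all genes tested. Values that follow are means ± SD with n = 3 DTx and n = 2 saline libraries.

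Glutathione synthesis and recycling supplies the cosubstrate of Gpx1, Gpx3 and Gpx4. Of its 20 genes, 12 had a fold change above 0 and 8 below, 0 passed, and the median log2 fold change was 0.05. Gsta4, which conjugates lipid aldehydes to glutathione, was at 132.0 ± 10.9 CPM in DTx and 98.6 ± 27.2 CPM in saline libraries. Gsr, the reductase that regenerates glutathione, was at 34.0 ± 1.69 CPM in DTx and 40.4 ± 4.22 CPM in saline libraries. Glrx, a glutaredoxin, and Ggt7 of the gamma-glutamyltransferase family had log2 fold changes of 0.46 and -0.42, with overlapping groups.

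Thioredoxins, peroxiredoxins and sestrins form the parallel peroxide-removing system. Of 15 genes, 13 had a fold change above 0, 0 passed, and the median was 0.12. Txn1, the cytosolic thioredoxin, was at 57.6 ± 8.58 CPM in DTx and 42.4 ± 11.9 CPM in saline libraries, and Prdx4, the peroxiredoxin of the endoplasmic reticulum, at 39.9 ± 9.22 CPM in DTx and 29.7 ± 0.924 CPM in saline libraries. Sesn1 and Sesn2, stress-induced sestrins, had log2 fold changes of 0.25 and 0.38. The groups did not overlap for 1 of the 15 genes, Sesn1, or 6.67%, against 21.1% of all genes.

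NRF2 is the transcription factor that induces many antioxidant genes. Of the 19 genes tested, 10 had a fold change above 0 and 9 below, 0 passed, and the median was 0.01. Hmox1, the inducible heme oxygenase, was at 10.1 ± 1.81 CPM in DTx and 5.81 ± 1.36 CPM in saline libraries. Blvrb, which reduces biliverdin, was at 15.6 ± 2.03 CPM in DTx and 11.1 ± 1.38 CPM in saline libraries, and Nqo1, a quinone reductase, at 27.3 ± 1.496 CPM in DTx and 19.9 ± 5.37 CPM in saline libraries. These 3 were the genes of the list whose groups did not overlap, 15.8% of the 19, against 21.1% of all genes. Slc48a1, a heme transporter, was at 336.5 ± 96.5 CPM in DTx and 452.6 ± 27.5 CPM in saline libraries.

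The binding motif of NRF2, the antioxidant response element core TGACNNNGC, was searched on both strands in RefSeq promoters of GRCm38.p6, each 250 bases before to 50 bases after a start site, because several of the members are known NRF2 targets. Promoters were found for Gpx3, Sod1, Sod2, Gpx1, Gpx4 and Cat, 9 in all. A match lay in 1 of the 9, that of Sod1, and in 12.4% of all 32851 promoters. It is shown with the match in capitals, on the opposite strand to the gene, and begins 56 bases before the start site.
Sod1, promoter chr16:90220512-90220811, plus strand: ccaaggtggGCGTGGTCAgactcaggc
The match is a description of the letters only. Sod3 and Prdx6 were not among the promoters.

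The other glutathione peroxidases and selenoproteins share the selenocysteine codon or the fold of the members. Of 13 tested, 6 had a fold change above 0 and 7 below, 0 passed, and the median was -0.02. Gpx8, a peroxidase of the endoplasmic reticulum with cysteine in place of selenocysteine, was at 21.2 ± 7.46 CPM in DTx and 11.7 ± 0.308 CPM in saline libraries. Selenow was at 708.1 ± 35.9 CPM in DTx and 606.5 ± 49.0 CPM in saline libraries, Selenof at 633.8 ± 42.0 CPM in DTx and 520.7 ± 116 CPM in saline libraries, and Selenoo at 22.6 ± 1.28 CPM in DTx and 25.6 ± 0.502 CPM in saline libraries.

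Selenium supply and selenocysteine synthesis serve Gpx1, Gpx3 and Gpx4 alike. Of 11 genes, 5 had a fold change above 0 and 6 below, 0 passed, and the median was -0.14. Scly, which recovers selenium from selenocysteine, was at 20.2 ± 4.55 CPM in DTx and 27.8 ± 2.96 CPM in saline libraries. Sephs2, which makes the selenium donor, was at 22.2 ± 3.05 CPM in DTx and 26.5 ± 0.327 CPM in saline libraries, and Secisbp2, which binds the selenocysteine insertion element, at 19.0 ± 1.33 CPM in DTx and 22.4 ± 2.24 CPM in saline libraries. For these 3 of the 11 genes all DTx libraries lay below both saline libraries, as they did for 8.99% of all genes. Lrp8, a receptor that takes up selenoprotein P, was at 24.5 ± 4.43 CPM in DTx and 37.4 ± 20.02 CPM in saline libraries, with overlapping groups.

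Copper and manganese are the metals of the dismutases. Of 13 genes for their supply and storage, 10 had a fold change above 0, 0 passed, and the median was 0.24. The groups did not overlap for 6 of the 13, 5 with DTx higher and 1 with DTx lower, against 12.1% and 8.99% of all genes. Slc39a8, an importer of manganese and zinc, was at 24.4 ± 8.53 CPM in DTx and 11.4 ± 4.68 CPM in saline libraries. Atp7b, a copper-transporting ATPase, was at 11.1 ± 2.24 CPM in DTx and 7.003 ± 1.98 CPM in saline libraries. Mt1 and Mt2, the metallothioneins, were at 932.3 ± 49.0 and 160.8 ± 18.8 CPM in DTx and 645.8 ± 276 and 95.5 ± 40.6 CPM in saline libraries.

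Sources of superoxide and hydrogen peroxide had the highest median of the 8 lists, at 0.43. Of the 18 genes listed 11 passed the low-count filter, with 10 of 11 above 0 and 0 past the threshold. Xdh, among those 10, was at 1.74, 0 and 1.08 CPM in DTx libraries against 0.28 and 0.27 CPM in saline libraries. It passed the filter only through DTx libraries. Cyba and Cybb, the membrane subunits of the phagocyte NADPH oxidase, were at 21.5 ± 5.75 and 7.78 ± 6.02 CPM in DTx and 10.5 ± 0.554 and 1.18 ± 0.619 CPM in saline libraries. Nos1, the neuronal nitric oxide synthase, was at 9.73 ± 3.01 CPM in DTx and 3.87 ± 0.531 CPM in saline libraries, and Maob, a monoamine oxidase of astrocytes, at 200.9 ± 22.1 CPM in DTx and 149.2 ± 11.7 CPM in saline libraries. The groups did not overlap for 6 of the 11, all with DTx higher, where 12.1% of all genes did so. Microglia carry the phagocyte oxidase, and the microglia and neuron sums given above were also higher in DTx libraries on average. In the edgeR fit with the microglia covariate, 0 genes of the 8 lists had an unadjusted p under 0.05. Over all 15532 genes the count in that fit also fell, to 470 from 976 without the covariate. That fit cannot separate the markers from the group, and the part of either cell type in these values was not tested.

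Peroxisome assembly genes, which make the organelle that holds catalase, had a median of 0.00681, with 10 of 15 above 0 and 0 past the threshold. Pex6, an ATPase of the protein import machinery, was at 21.6 ± 1.07 CPM in DTx and 28.7 ± 14.5 CPM in saline libraries, with overlapping groups. Pex26, its anchor in the peroxisome membrane, was at 3.80 ± 0.595 CPM in DTx and 5.73 ± 1.76 CPM in saline libraries.

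**Figure D5:**
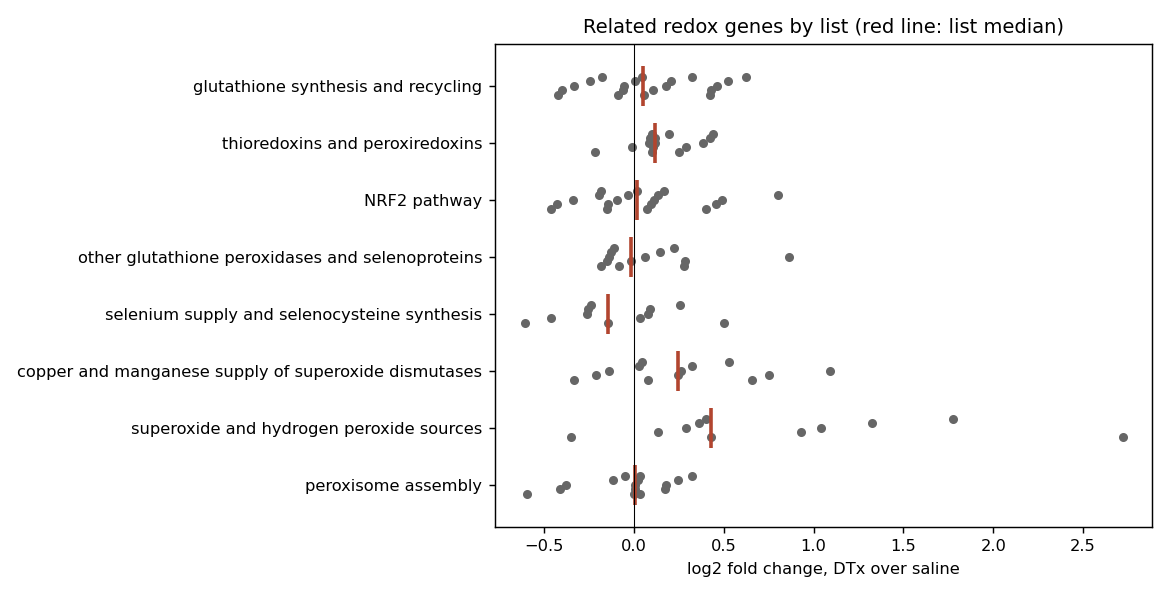
Log2 fold change, DTx over saline, of each tested gene in the 8 lists of related redox genes, with the list median as a red line. Medians lie between -0.14 for selenium supply and 0.43 for superoxide and hydrogen peroxide sources, where Cybb reaches 2.72.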

How the data were processed

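Raw read counts per gene were deposited by the authors in 1 table, with separate columns for the libraries. The submitters' processing notes name STAR 2.7.5c, fastp 0.23.2, featureCounts 2.0.1, MultiQC 1.11, edgeR 3.42.4 and FastQC 0.11.9, with GRCm38 and mm10. The annotation, strand setting and handling of reads with several matches used by the authors are not given in the sources held here. Counts of members with processed copies may therefore be incomplete. Exons of the 8 members overlap no other gene in GENCODE M21.

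Columns marked Ctrl with the numbers 1 and 2 were taken as saline replicates 1 and 2. Columns marked DTX have numbers that match no label and stand for the group only. The table has 1 more column, marked Ctrl, that matches none of the samples analysed. It was used in no computation, and its Gpx3 and Sod3 counts were seen to lie nearer to the DTx columns. Every pair of libraries differed beyond sampling noise, with chi-square per degree of freedom of at least 14.2. The lowest values were 14.2 between DTx libraries 5A and 6A and 17.7 between DTx library 7A and saline library 2. Library 7A was at 60.7 from 5A and 58.4 from 6A, and the saline libraries were at 60.0 from each other. By this measure the nearest libraries did not follow the labels. The design text counts mice, but the labels do not say that each library is 1 mouse, and p-values measure only the spread between these libraries.

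Counts were fitted with edgeR 4.0.16 in R 4.3.3 (TMM scaling, filterByExpr with minimum count 10, robust quasi-likelihood test, Benjamini-Hochberg adjustment over 15532 genes, threshold 0.05), which was tested on simulated data. All 8 members passed the filter. CPM values are TMM-scaled, on the library sizes of the filtered genes. Lengths are merged GENCODE M21 exons. Likeness is the Euclidean distance of centred log2 CPM with a prior count of 2. All 8 members were named, as were the 4 genes of smallest p in each of 8 companion lists (except 2 that are not reported here) and the 4 genes nearest to Gpx3 and to Sod3. Symbols of 10 list genes were matched by an older name in the RefSeq table. The members and lists were chosen with earlier results of these data known. Alternatives used DESeq2 1.42.0 and limma 3.58.1 among others.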

Additional observations from a re-analysis of the deposited data

How the results depend on the processing

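Over 15 alternatives Gpx3, Gpx1 and Sod3 kept the sign of their log2 fold change, while Sod1 changed sign in 2, Sod2 in 4, Gpx4 in 1, Cat in 5 and Prdx6 in 2. The 5 genes that passed over the whole table became 9 with no low-count filter, 111 with DESeq2, 100 with the edgeR likelihood ratio test and 3 with the mean of microglia markers as a covariate. With 1 library left out they were 5 to 13, the 13 without DTx library 7A. The 0 members that passed became 1 (Gpx3) with no low-count filter, 2 (Gpx3 and Sod3) with DESeq2 and 2 with the likelihood ratio test, and stayed at 0 with each library left out. The count of companion genes past the threshold was 0 under all 15 alternatives. The cause was not tested. Leaving out a saline library assumes that the lone one varies like the DTx libraries. No paired analysis was possible because the numbers of the DTx columns match no label. Gpx3, with 131 counts in saline library 1, is the member that counting error limits most.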
